A study of Mus musculus with 2 samples.

Results

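The unfolded protein and heat shock response genes were examined in peritoneal macrophages elicited with thioglycollate, either nontreated (NT) or exposed to IL-4 for 6 h, at 20 ng per mL if the dose that the methods give for mouse macrophages was used for these libraries too. The 43 genes were taken from a fixed list of symbols, matched by NCBI gene number, out of 15623 genes listed in the tables, and all 43 were listed in both libraries. The cells of both groups came from wild-type C57BL/6 mice, 6 to 8 weeks old per the study's methods, were purified by adherence and were kept in low-serum medium, so both groups had gone through elicitation, plating and serum starvation. Each of the 2 groups held 1 RNA-sequencing library, the number of mice behind each was not given in the sources used here, and 1 label field named bone marrow as the tissue while another named peritoneal macrophages. No difference below could therefore be checked against the spread between replicates, and bulk RNA cannot tell fewer cells of a type from less RNA per cell.

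Cells sense unfolded protein in the endoplasmic reticulum (ER) through the membrane proteins ATF6, IRE1 (encoded by Ern1) and PERK (encoded by Eif2ak3). ATF6 and the spliced form of XBP1, which IRE1 makes, turn on ER chaperones and the machinery of ER-associated degradation (ERAD). PERK phosphorylates eIF2alpha, as do other kinases that respond to amino acid shortage or viral RNA, and the ATF4 that is then translated turns on the genes of the integrated stress response. Unfolded protein in the cytosol instead releases HSF1, which turns on the heat shock proteins. Macrophages secrete much protein and keep many of these chaperones at high levels.

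The promoters carry short elements that background knowledge ties to these arms, and the letters of 5 such elements were searched on both strands from 250 bases before to 50 bases after each annotated start (RefSeq, GRCm38.p6). Promoters were tabled for 35 of the 43 genes. The ER stress response element (ERSE, the letters CCAAT and CCACG 9 bases apart), bound by NF-Y with ATF6 or XBP1, was found for 9 of these 35 genes and for 0.137% of all 27025 genes with a promoter in the table. The shown stretches are in the direction of transcription, with the fixed letters in capitals. They are those of the main ER chaperones, of the disulfide enzyme gene Pdia6 and of the ERAD ligase gene Syvn1.
Hspa5, chr2:34772020-34772048, plus strand: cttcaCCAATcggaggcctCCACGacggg
Hsp90b1, chr10:86705633-86705661, minus strand: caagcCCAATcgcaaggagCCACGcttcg
Hsp90b1, chr10:86705528-86705556, minus strand: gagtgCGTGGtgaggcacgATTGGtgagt
Calr, chr8:84847070-84847098, minus strand: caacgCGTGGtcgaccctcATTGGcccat
Canx, chr11:50325795-50325823, minus strand: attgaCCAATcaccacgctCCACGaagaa
Pdia6, chr12:17266486-17266514, plus strand: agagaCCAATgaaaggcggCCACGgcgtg
Syvn1, chr19:6046527-6046555, plus strand: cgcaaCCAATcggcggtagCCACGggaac
Those of Calr and the nearer Hsp90b1 element are the reverse complement. The motif of Hspa5 began 65 bases before the start. The remaining ERSE genes were Dnajc3, Creld2 and Derl3. The related ERSE-II (ATTGG and CCACG 1 base apart) was found for Herpud1 and Dnajb11 and for 0.0444% of all genes, and that of Dnajb11 lies after the start. The XBP1 element UPRE (TGACGTGG) was found in none of the 35 genes and in 0.714% of all genes.

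The C/EBP-ATF response element (CARE, TGATGNAA), bound by ATF4 with a C/EBP partner, was found for 4 of the 35 genes and for 4.51% of all genes. These stretches are shown because most of the genes that carry them were called.
Asns, chr6:7693220-7693237, minus strand: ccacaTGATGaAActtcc
Chac1, chr2:119351044-119351061, plus strand: tgccgTTgCATCActcct
Trib3, chr2:152344034-152344051, minus strand: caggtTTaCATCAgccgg
Herpud1, chr8:94386312-94386329, plus strand: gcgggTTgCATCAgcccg
All but that of Asns are in reverse complement, and that of Trib3 lies after the start. The heat shock element (HSE, GAA, TTC and GAA with 2 bases between neighbours) was found for Hsph1, Hspd1 and Hspe1 and for 0.662% of all genes. The match of Hsph1 is in reverse complement and lies after the start. Hspd1 and Hspe1 lie head to head, and their 2 overlapping matches are the same stretch of chromosome 1, shown here as read from Hspe1.
Hspe1, chr1:55088059-55088081, plus strand: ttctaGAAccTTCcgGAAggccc
Hsph1, chr5:149636283-149636305, minus strand: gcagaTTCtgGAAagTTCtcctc
A match in letters is a description and not a shown binding site, and a window without a match says nothing about the factor.

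The NT library held 11035641 expected counts and the IL-4 library 11250099. Expected counts are the RSEM estimates of the reads of each gene, and FPKM scales them for length and depth. Following the thresholds of the study, calls required a log2 ratio (IL-4 over NT) of at least 0.75 in size, an exact binomial p-value no higher than 0.05 and a Benjamini-Hochberg value no higher than 0.5. The test compares the reads of these libraries, not the conditions, and the intervals given below are 95% Clopper-Pearson intervals that cover counting error only. The IL-4 library carried its response, with Arg1, an arginase, at 30 counts in NT and 7711 in IL-4, and Cish, a cytokine signalling inhibitor, unlisted in NT and at 662 in IL-4. All 8 macrophage markers were listed in both libraries, with a summed level of 17095 CPM (counts relative to the library total) in NT and 17408 CPM in IL-4, and of these Csf1r was called higher and Cd14 lower. Plasma cells also run a strong unfolded protein response, and of their 8 markers Jchain and Mzb1 had 2 counts in NT and 3 in IL-4, Ighm and Igkc were listed in neither library, and Prdm1, a factor also used by activated macrophages, fell (145 and 52 counts). The summed plasma cell list was 362 CPM in NT and 238 CPM in IL-4, nearly all from Sdc1 (3836 and 2610 counts). The summed levels were 9.61 and 8.62 CPM for 5 B cell markers, 3.96 and 2.77 CPM for 6 T cell markers, 7.71 and 7.46 CPM for 6 neutrophil markers, 7.52 and 4.09 CPM for 6 eosinophil and mast cell markers, and 163 and 128 CPM for 8 mesothelial and fibroblast markers, in NT and IL-4 respectively. Trac, Ly6g, Mpo, Camp, Ngp and Epx were listed in neither library. The part of other cells in the ratios below was not tested.

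Of the 43 genes, 7 were called higher upon IL-4 stimulation (16.3%) and 0 lower, where 4.07% of all 15593 genes tested were called higher and 6.28% lower. Among the genes with at least 200 reads, 6 of 39 members were called higher against 3.58% of 8461 genes, and 0 lower against 5.81%. The 7 genes were Pdia4, Xbp1, Ddit3, Trib3, Chac1, Asns and Hsph1. Over the 43 genes the median log2 ratio was 0.23, beside -0.03 for all genes tested. Of the 36 genes not called, 21 had an interval wholly above 0, 4 (Calr, Edem1, Syvn1 and Atf6) had one wholly below 0 and 11 had one that included 0. Over all 43 genes, 28 intervals lay above 0 and 4 below, beside 2787 and 3179 of all 15593 genes tested. With at least 200 reads, these were 27 and 4 of 39 members, beside 2372 and 2559 of 8461 genes. Such intervals cover counting error only, so they exclude 0 for many genes with many reads. Together the 43 genes took 0.996% of all counts in NT and 1.20% in IL-4. By role, calls were made for 0 of 11 ER chaperones, 1 of 5 ER disulfide enzymes, 0 of 7 ERAD genes and 2 of 6 sensors and factors. Of the remaining roles, 3 of 4 integrated stress targets, 1 of 8 cytosolic heat shock genes and 0 of 2 mitochondrial chaperonin genes were called. With so few genes in each role, these counts are descriptions. When an assumed biological coefficient of variation of 0.4 was put in the place of replicates, 1 of the 43 genes, Pdia4, remained called.

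**Figure D1:**
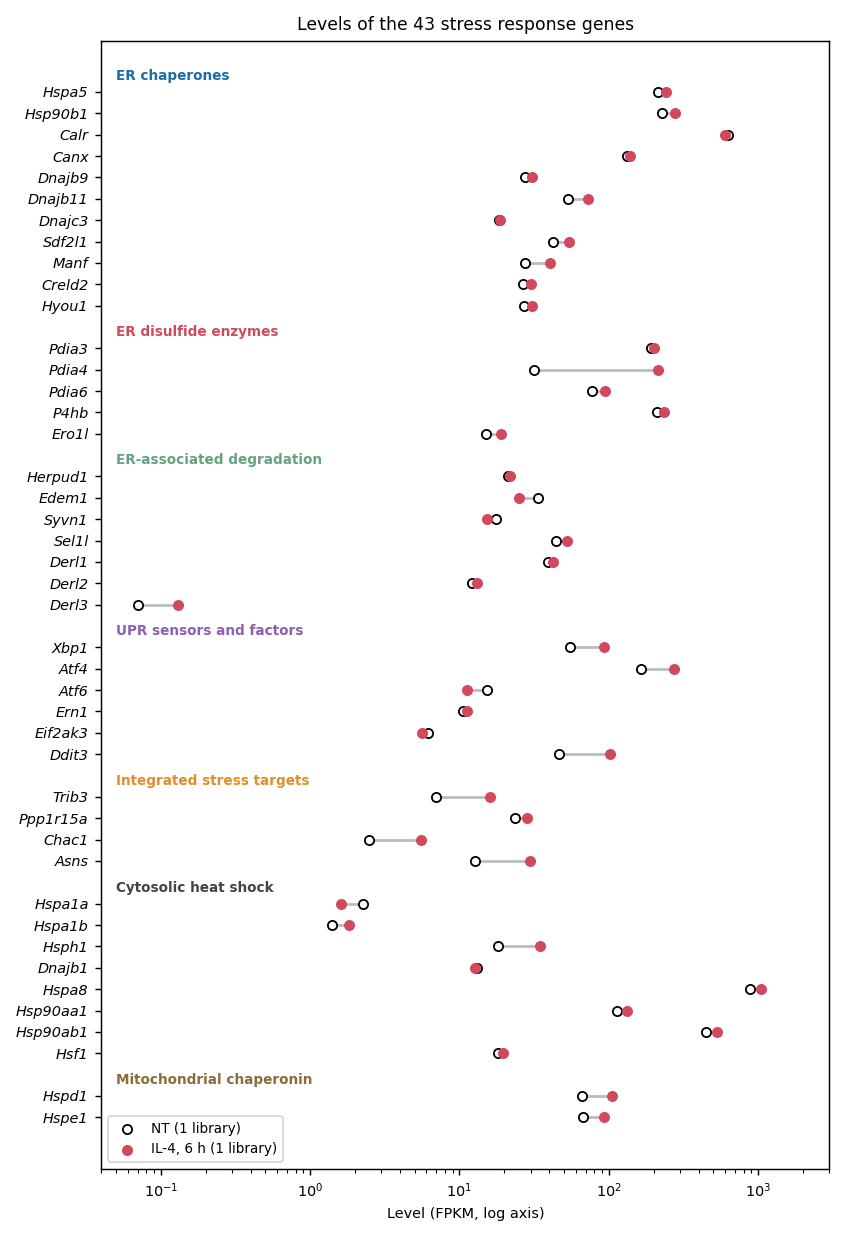
Level of each of the 43 genes in FPKM (log axis) in the NT library (open circles) and the IL-4 library (filled circles), 1 library each, grouped by role. Hspa8 had the highest level in both libraries and Derl3 the lowest, and the widest gap between the libraries among genes of more than 3 counts is that of Pdia4.

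None of the ER chaperones was called, and the 4 most abundant by FPKM in NT had log2 ratios from -0.06 to 0.29. Calr, a calcium-binding lectin chaperone and the most abundant ER member by FPKM, had 13397 counts in NT and 13134 in IL-4 (625 and 601 FPKM). Its log2 ratio was -0.06 (interval -0.09 to -0.02). Hspa5 (BiP), the ER HSP70 whose ERSE is printed above and which is the usual readout of ER stress, had 6023 counts in NT and 6984 in IL-4 (214 and 243 FPKM). For Hspa5 the log2 ratio was 0.19 (interval 0.14 to 0.24), or 1.14-fold. Hsp90b1 (GRP94), the ER HSP90, had 6921 and 8613 counts, which is 0.29 on the log2 scale (interval 0.24 to 0.33). Canx, the membrane-bound partner of calreticulin, had 6368 and 6772 counts and a log2 ratio of 0.06. The intervals of these 4 genes excluded 0 and stayed inside the threshold.

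The cofactors of BiP and the smaller ER folding proteins were measured at lower levels, between 18.5 and 53.4 FPKM in NT. Manf, a secreted protein that is released from BiP when ER calcium is depleted, had 669 counts in NT and 1005 in IL-4. Its log2 ratio of 0.56 (interval 0.42 to 0.70) was the highest among the 11 ER chaperones and its interval lay below the threshold. The J-domain cochaperone Dnajb11 had 1067 and 1464 counts (log2 ratio 0.43) and its partner Sdf2l1 had 515 and 673 counts (0.36). The J-domain cochaperones Dnajb9 and Dnajc3 had log2 ratios of 0.16 and 0.02, with 563 and 644 counts for Dnajb9 and 1072 and 1110 for Dnajc3. Hyou1, the nucleotide exchange factor of BiP, had 1342 and 1550 counts (0.18), and Creld2 had 400 and 456 (0.16). The intervals of Dnajc3 and Creld2 included 0. Summed over the 11 ER chaperones, the counts were 3474 CPM in NT and 3769 CPM in IL-4.

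The disulfide enzymes of the ER differed from each other, and Pdia4 stood apart. Pdia4 (ERp72, gene 12304, chromosome 6, 47796141 to 47813512), a disulfide isomerase that forms and reshuffles disulfide bonds in secretory proteins, rose from 917 counts in NT to 6314 in IL-4 (31.7 and 214 FPKM). This was a 6.75-fold difference, 2.76 on the log2 scale (interval 2.66 to 2.86). By FPKM it went from position 2150 to position 344 among all genes tested. The other disulfide isomerases were not called. Pdia3 (ERp57), which works with calreticulin and calnexin, had 5611 counts in NT and 6002 in IL-4, which is 0.07 on the log2 scale (interval 0.02 to 0.12). P4hb, the classical disulfide isomerase and a subunit of prolyl hydroxylase, had 5897 and 6756 counts (0.17, interval 0.12 to 0.22). Pdia6 had 1814 and 2257 counts (0.29, interval 0.20 to 0.38). Ero1l (Ero1a), the oxidase that recharges these enzymes, had 740 and 959 counts (0.35, interval 0.21 to 0.49).

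In NT cells Pdia4 was thus far below Pdia3 (190 FPKM) and P4hb (210 FPKM), and in IL-4 cells it lay between Pdia3 (200 FPKM) and P4hb (236 FPKM). Its share of the summed FPKM of Pdia3, Pdia4, Pdia6 and P4hb was 6.23% in NT and 28.8% in IL-4. Over the other 15 ER chaperones and disulfide enzymes the log2 ratios ran from -0.06 to 0.56, with a median of 0.18, so the interval of Pdia4 did not meet that of any of them. Its promoter window held none of the 5 motifs. Pdia4 was called under every one of the 12 alternatives, with log2 ratios from 2.72 to 2.79.

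**Figure D2:**
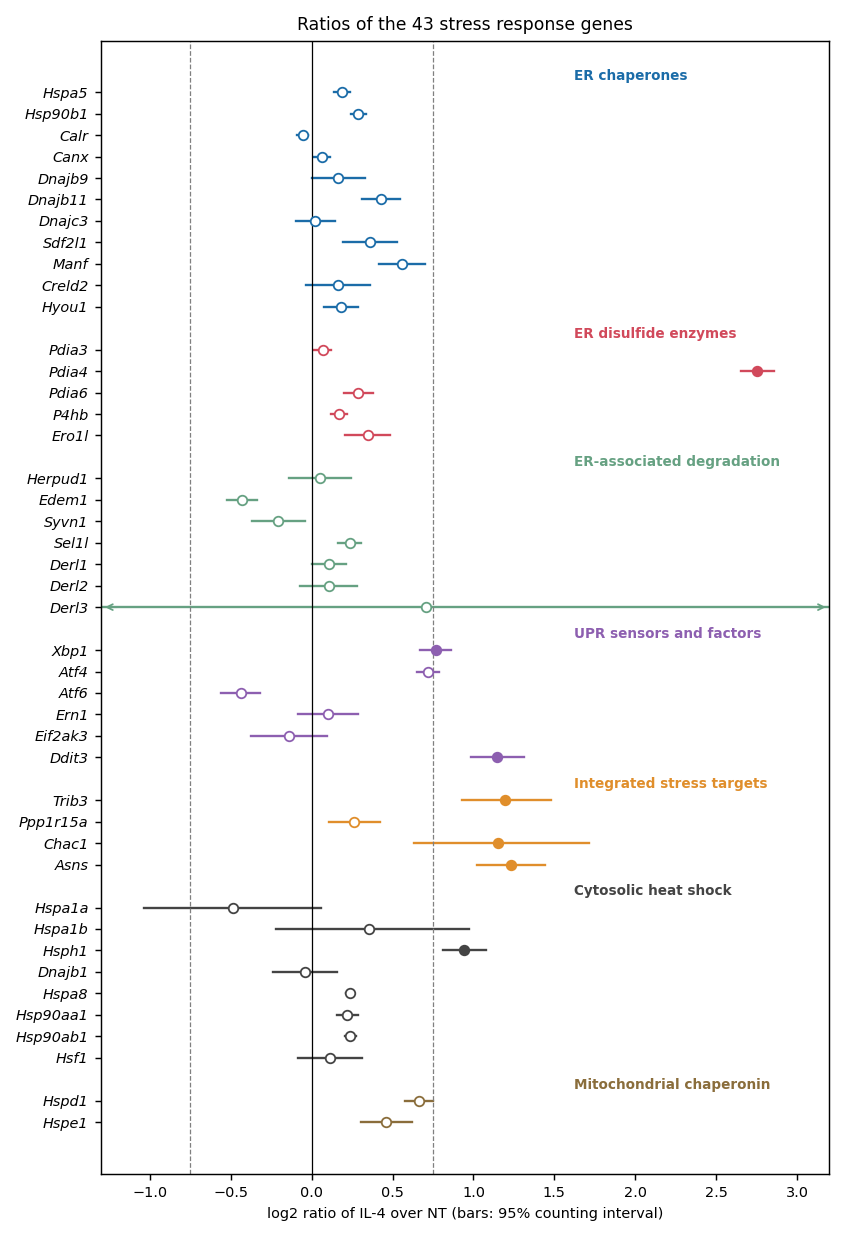
log2 ratio of IL-4 over NT for each of the 43 genes, with bars for the 95% counting interval, filled points for called genes, dashed lines at -0.75 and 0.75, and arrows where the interval of Derl3 (3 reads in all) leaves the axis. Pdia4 stands at 2.76, the other called genes lie between 0.77 and 1.23, and most of the remainder lie between 0 and 0.75.

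The ERAD genes, which recognise misfolded ER proteins, move them to the cytosol and tag them for the proteasome, were not called. Herpud1, an ER membrane protein that holds the degradation complex together and whose promoter holds both an ERSE-II and a CARE, had 433 counts in NT and 457 in IL-4, which is 0.05 on the log2 scale (interval -0.14 to 0.24). Sel1l, the scaffold of the complex, had 3126 and 3748 counts (0.23, interval 0.17 to 0.30), and Syvn1 (HRD1), its ubiquitin ligase, had 638 and 564 (-0.21, interval -0.37 to -0.04). The candidate channel proteins Derl1 and Derl2 had 1368 and 1502 counts and 500 and 548 counts, with log2 ratios of 0.11 and 0.10. Derl3 was nearly absent, with 1 count in NT and 2 in IL-4, at or under the floor of 3 counts, so no ratio is drawn from it. Edem1, a lectin that directs trimmed glycoproteins to degradation, had 2202 and 1668 counts, which is -0.43 on the log2 scale (interval -0.52 to -0.34). Edem1 is a long transcript (5858 bases), and long transcripts were lower in the IL-4 library in general. The cause of that trend, and of the ratio of Edem1, was not tested.

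The ratios of several members changed when that length trend was subtracted. Among 8461 genes with at least 200 reads, the median log2 ratio was 0.18 for the shortest 10% and -0.44 for the longest 10%. After subtraction of the median over the 200 genes of most similar length, the ratio of Edem1 was -0.12, that of Atf6 (7463 bases) went from -0.44 to 0.03, and that of Sel1l (6289 bases) from 0.23 to 0.50. The subtraction took Xbp1 from 0.77 to 0.70, below the threshold, and left the other 6 calls in place. Besides Atf6, 3 uncalled genes changed sign, Creld2 (0.16 to -0.02), Herpud1 (0.05 to -0.09) and Hsf1 (0.12 to -0.02), and the long Dnajc3 (5190 bases) went from 0.02 to 0.27. The median of the 43 genes was 0.19 after subtraction.

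**Figure D3:**
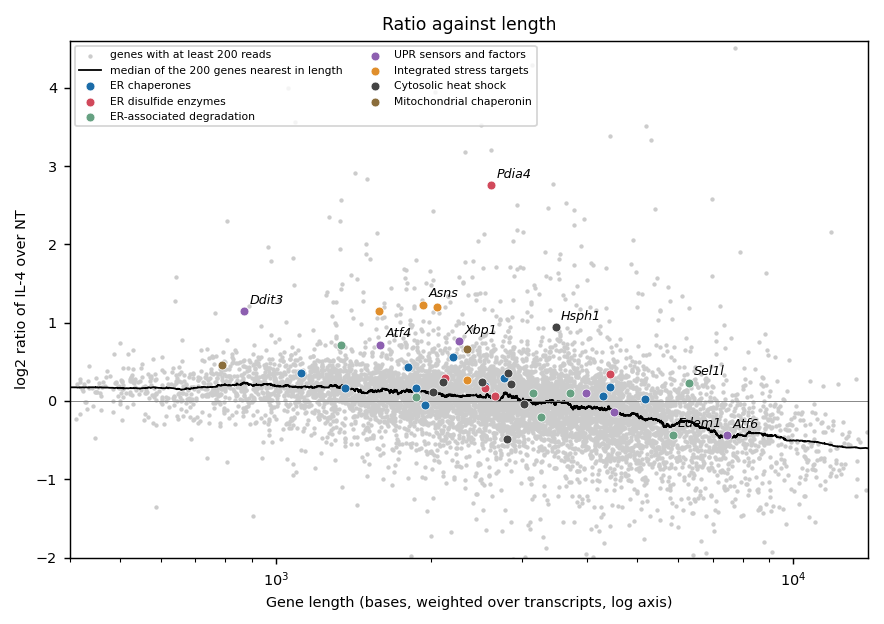
log2 ratio of IL-4 over NT against gene length in bases (log axis), with all genes of at least 200 reads in grey, the median of the 200 genes nearest in length as a line, and the 43 genes coloured by role. The line is above 0 for short genes and falls below 0 for long ones (medians of 0.18 and -0.44 for the shortest and longest 10%), some grey points lie beyond the axis, Atf6 and Edem1 lie close to the line, and the called genes lie above it.

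The sensors of the unfolded protein response were at modest levels and were not called. Ern1, which encodes the kinase and nuclease IRE1, had 465 counts in NT and 508 in IL-4, which is 0.10 on the log2 scale (interval -0.08 to 0.28). Eif2ak3, which encodes PERK, had 312 and 289 counts (-0.14, interval -0.37 to 0.10). Atf6, which encodes the membrane-bound transcription factor, had 1278 and 961 counts (-0.44, interval -0.56 to -0.32). By FPKM these 3 genes ran from 6.19 to 15.3 in NT and from 5.62 to 11.3 in IL-4.

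The transcription factors that act below the sensors were more abundant and were measured higher. Xbp1 (chromosome 11, 5520641 to 5525993), the factor whose mRNA IRE1 splices, rose from 1368 to 2373 counts (54.7 to 93.0 FPKM). Its log2 ratio was 0.77 and the interval, 0.67 to 0.86, included the threshold, so its call was a close one. Atf4 (chromosome 15, 80255184 to 80257545), the central factor of the integrated stress response, had 2880 counts in NT and 4833 in IL-4 (164 and 273 FPKM). Its log2 ratio of 0.72 (interval 0.65 to 0.79) fell just short of the threshold. Xbp1 and Atf4 were therefore just inside and just outside the limit, with ratios 1.70-fold and 1.65-fold, and their intervals overlapped. Atf4 was called with TMM scaling (0.76) and at a fold over 1.5 with an adjusted value of at most 0.05. Without the 100 most abundant genes in the totals Xbp1 was not called, at a value just under the threshold that rounds to it (0.75). Gene-level counts do not show the splicing of Xbp1 or the translation of Atf4, through which these factors are mainly controlled.

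Ddit3 (CHOP, chromosome 10, 127290793 to 127296291), a C/EBP-family factor downstream of ATF4 that is tied to cell death under lasting stress, rose from 436 to 984 counts (46.7 to 103 FPKM). On the log2 scale Ddit3 was 1.15 higher (interval 0.98 to 1.31). Its annotated span overlaps those of Mbd6 and Mars1 by 77 and 71 bases, and whether the counting used strand was not given in the sources used here. Mbd6 had a log2 ratio of -0.39 and Mars1 of 0.43, and the part of shared reads in the ratio of Ddit3 was not tested. Other members overlap listed genes too, such as Derl2 with Mis12 (274 bases) and Hspa5 with Rabepk (1921 bases).

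The targets of the integrated stress response had 3 of 4 genes called higher, beside 4.07% of all genes tested and 16.3% of the 43 members. Their median log2 ratio of 1.17 was the highest among the 7 roles. With 4 genes in the role, these values are descriptions. Asns (chromosome 6, 7675165 to 7693209), asparagine synthetase, rose from 270 to 646 counts (12.7 to 29.8 FPKM), which is 1.23 on the log2 scale (interval 1.02 to 1.44). Trib3 (chromosome 2, 152337425 to 152344060), a pseudokinase that feeds back on ATF4 and CHOP, rose from 158 to 370 counts, which is 1.20 on the log2 scale (interval 0.93 to 1.48). Chac1 (chromosome 2, 119351242 to 119354326), an enzyme that breaks down glutathione, rose from 43 to 98 counts, which is 1.15 on the log2 scale. The interval of Chac1 was wide, from 0.63 to 1.71, and included the threshold. Ppp1r15a (GADD34), the phosphatase subunit that reverses the phosphorylation of eIF2alpha, had 610 counts in NT and 747 in IL-4 and was not called. Its log2 ratio was 0.26 (interval 0.11 to 0.42), below those of the other 3.

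The genes with the CARE letters were Asns, Trib3, Chac1 and Herpud1, of which the 3 former were called and Herpud1 (0.05) was not. The 11 genes with an ERSE or ERSE-II had 0 calls and a median log2 ratio of 0.16, and without Derl3, which had 3 reads in all, their ratios ran from -0.21 (Syvn1) to 0.43 (Dnajb11). Of the 18 genes whose window held none of the motifs, 3 were called (Pdia4, Ddit3 and Xbp1), and the median of the 18 was 0.20. Over all genes tested, 4.07% were called higher and 6.28% lower, and of the 43 members 16.3% were called higher. With 11 genes, 0 calls does not set the ERSE class apart from the share of all genes. The 3 of 18 is near the share of the members. With so few genes in each class, these are descriptions, and the part of any factor was not tested.

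**Figure D4:**
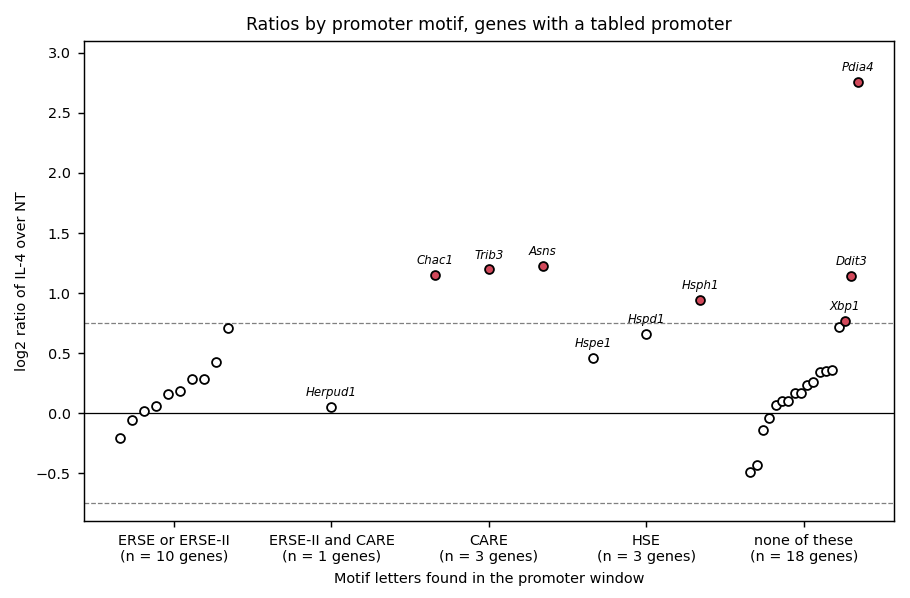
log2 ratio of IL-4 over NT for the 35 genes with a promoter in the table, grouped by the motif letters found in the window from 250 bases before to 50 bases after the start, with filled points for called genes and dashed lines at -0.75 and 0.75. The 10 genes with ERSE or ERSE-II alone stay below 0.75, the 3 with CARE alone lie between 1.15 and 1.23, and Pdia4, with none of the motifs, is at 2.76.

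The heat shock genes of the cytosol were led in level by the constitutive chaperones. Hspa8 (HSC70), the constitutive HSP70, had 20496 counts in NT and 24631 in IL-4 (882 and 1039 FPKM), which is 0.24 on the log2 scale (interval 0.21 to 0.26). Hsp90ab1, the constitutive HSP90, had 12511 and 15053 counts and a log2 ratio of 0.24, and Hsp90aa1, the inducible form, had 3612 and 4288 counts and one of 0.22. The FPKM of Hsp90ab1 was 3.94-fold that of Hsp90aa1 in NT and 4.00-fold in IL-4, so their relation was nearly the same in both libraries. None of these 3 genes was called.

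The inducible HSP70 genes were low in both libraries. Hspa1a and Hspa1b encode nearly identical HSP70 proteins, and RSEM divided their shared reads, so their separate values (70.0 and 50.8 counts for Hspa1a, 44.1 and 57.5 for Hspa1b) are uncertain. Summed, they had 114 counts in NT and 108 in IL-4, which is -0.10 on the log2 scale (interval -0.50 to 0.29). Each was below 2.5 FPKM. Dnajb1 and Hsf1 were at higher levels, from 12.7 to 19.6 FPKM over both libraries. Dnajb1 (HSP40), a sensitive target of HSF1, had 436 and 432 counts, which is -0.04 on the log2 scale (interval -0.24 to 0.15). Hsf1 itself had 403 and 445 counts (0.12, interval -0.08 to 0.31). Neither the inducible HSP70 genes nor Dnajb1 nor Hsf1 thus had an interval that excluded 0.

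Hsph1 (HSP110, chromosome 5, 149616843 to 149636498), the nucleotide exchange factor of cytosolic HSP70, was the exception among the 8 genes. It rose from 697 to 1366 counts (18.0 to 34.6 FPKM), which is 0.94 on the log2 scale (interval 0.81 to 1.08). The mitochondrial chaperonin genes were not called, but both had intervals above 0. Hspd1 (HSP60) had 1713 counts in NT and 2766 in IL-4, and the interval of its log2 ratio of 0.66 ran from 0.58 to the threshold of 0.75. Its cofactor Hspe1 (HSP10), which shares its bidirectional promoter and the HSE printed above, had 569 and 798 counts (0.46, interval 0.30 to 0.62). The annotated spans of Hspd1 and Hspe1 overlap by 96 bases.

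To set the 43 genes beside the other genes of their pathways, 8 further lists were examined. Of 26 listed genes of the integrated stress response outside the 43 (27 named, Fgf21 in neither library), 10 were called higher (38.5%, beside 4.07% of all genes tested) and 0 lower (beside 6.28%), with a median log2 ratio of 0.76. Phgdh, which begins serine synthesis from a glycolytic intermediate, rose from 426 to 1517 counts (log2 ratio 1.80, interval 1.65 to 1.96). Psat1, the next enzyme of that pathway, rose from 266 to 650 counts (1.26), and the mitochondrial one-carbon enzyme Mthfd2 from 624 to 1382 (1.12). Slc7a5, the light chain of the LAT1 amino acid transporter, rose from 145 to 461 counts (1.64, interval 1.37 to 1.92). The stress-induced cofactor Nupr1 rose from 143 to 355 counts (1.28) and the factor Atf5 from 1306 to 2718 (1.03).

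The other called genes of that list, named after their values were seen, were Atf3, Cebpb, Psph and Slc6a9. The list also held genes with ratios below 0. Gdf15, a secreted stress cytokine, had 149 counts in NT and 132 in IL-4, and the death genes Tnfrsf10b and Pmaip1 had log2 ratios of -0.53 and -0.22, none of them called. Slc7a11 and Slc3a2, which form the cystine exchanger, were abundant and had log2 ratios of 0.56 and 0.51, neither called. Slc7a11 is long (9227 bases), and with the length trend subtracted its ratio was 0.997, above the threshold, and that of Slc3a2 was 0.44. These 5 genes were likewise picked after their values were seen. With an assumed coefficient of variation of 0.4, 0 of the 26 genes were called.

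The ER lists were read against the same background. Of 34 other ER folding genes, 1 (Pdia5, 21 and 39 counts, named after its values were seen) was called higher (2.94%, near the 4.07% of all genes), and the median log2 ratio was 0.08. With the length trend subtracted this list went from 22 genes above 0 and 12 below to 17 and 17. No call was made among 27 other ERAD genes (median -0.01) or 26 genes listed as other control genes of the unfolded protein response (median 0.07). Selenos, named after its values were seen, was counted in both the ER folding list (as Sels) and the ERAD list (as Vimp). The 31 genes of ER translocation, signal peptide cleavage and N-glycosylation had 0 calls and a median of 0.23. Their ratios ran from 0.03 to 0.58, so all 31 were above 0. Over all genes tested, 7070 of 15593 were above 0, and 4247 of 8461 with at least 200 reads. All 31 were also above 0 under the 3 other scalings, and 28 of the 31 with the length trend subtracted. The 14 genes of the cytosolic chaperonin TRiC and its partner prefoldin had 0 calls, a median of 0.31 and ratios from 0.07 to 0.69.

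Of 49 other heat shock genes, 2 were called higher (4.08%, about the 4.07% of all genes) and 1 lower (2.04%, beside 6.28%), with a median of 0.21. Fkbp5, an HSP90 cochaperone that is also a well-known glucocorticoid target, rose from 82 to 190 counts (1.18, interval 0.80 to 1.58). The 2 others had few reads, Hsf4 with 14 and 29 counts and Dnaja4 with 22 and 10, and both are named after their values were seen. Among 16 genes of mitochondrial protein folding and turnover, 0 were called at a median of 0.18, and Hspa9, the mitochondrial HSP70 and likewise picked for its value, had 3544 and 6007 counts, a log2 ratio of 0.73.

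**Figure D5:**
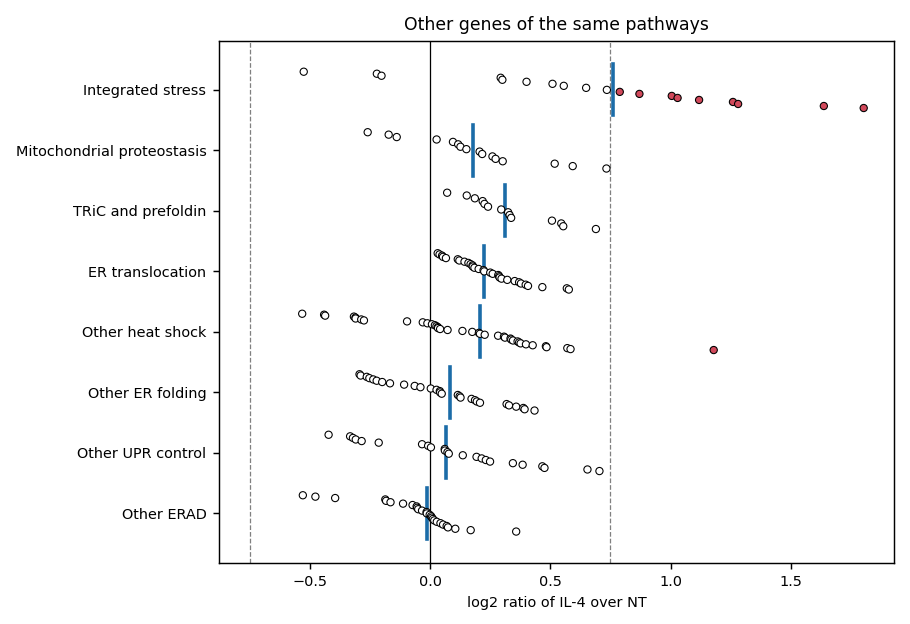
log2 ratio of IL-4 over NT for the genes of 8 pathway lists outside the 43 genes, showing those with at least 50 counts in the library with more, with filled points for called genes, dashed lines at -0.75 and 0.75, and a vertical bar at the median of all tested genes of the list. The integrated stress list has its median at 0.76 and 9 filled points, and the other heat shock list has 1.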

How the data were processed

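Total RNA of 1 NT and 1 IL-4 library was sequenced on an Illumina HiSeq at BGI. Per the labels and the study's methods, the authors used Bowtie and RSEM with GRCm38/mm10 and RefSeq genes, and the versions and the use of strand were not given in the sources used here. The deposited expected counts are RSEM estimates that need not be whole and are not scaled for depth. The deposited FPKM values were scaled by the authors for length and assigned fragments. The deposited length column, in bases, was used for the length trend. A gene not listed in a table was set to 0.

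Gene numbers were matched to symbols and coordinates through a RefSeq table for GRCm38.p6 (36 of 15623 were not matched), Ero1l by its synonym, and all coordinates are of that build. Expected counts were scaled to the library totals with 0.5 added for log2 ratios and rounded for an exact two-sided conditional binomial test with doubled smaller tail. It was run on the 15593 genes with at least 1 read, with Benjamini-Hochberg adjustment over all of them. With 1 library a group, depth limits precision to counting error, 3 counts being 0.272 CPM in NT and 0.267 CPM in IL-4, and PCR copies cannot be told apart in these tables. The calling code was also run on simulated counts that held counting error only. That run cannot show how the calls would hold between replicates. Alternatives were other scalings (edgeR 4.0.16, DESeq2 1.42.0), FPKM with 0.1 or 1 added, a read minimum of 20, a length trend, other thresholds, and edgeR's exact test at coefficients of variation set to 0.1, 0.2 or 0.4.

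All 43 members were named, and of each pathway list up to 6 called genes with at least 50 counts in the library with more, by size of ratio. Genes outside this rule are said to be named after their values were seen. The members and lists were chosen with earlier results of these data known, so counts and medians are descriptions. Python 3.11.15, scipy 1.17.1, pandas 2.3.3 and R 4.3.3 were used.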

Additional observations from a re-analysis of the deposited data

How the results depend on the processing

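No paired analysis was possible because there was 1 library a group, and no replicate could be left out. All alternatives set beforehand were run. Over them, 5 to 9 of the 43 genes were called higher except with an assumed coefficient of variation of 0.4, which left 1 (Pdia4), and 0 were called lower in all 12. The median of the 43 genes stayed between 0.19 and 0.27. Over all genes, FPKM with 1 added gave 391 higher and 399 lower, a log2 ratio of at least 1 gave 408 and 476, and a coefficient of 0.2 gave 390 and 423. With 0.4, 65 genes were higher and 8 lower, and calls fell to 0 among the sensors and factors, the integrated stress targets, the cytosolic heat shock genes and the integrated stress and other heat shock lists. The sensors and factors kept 1 call (Ddit3) with a coefficient of 0.2, at a log2 ratio of at least 1, without the 100 most abundant genes in the totals and with the length trend subtracted. At a log2 ratio of at least 1 the cytosolic heat shock genes had 0 calls. A fold over 1.5 with an adjusted value of at most 0.05 called 9 of the 43 genes, adding Atf4 and the mitochondrial chaperonin gene Hspd1. Outside the 43 the genes it added included 2 other control genes, 1 TRiC gene and 2 mitochondrial proteostasis genes. TMM and median-of-ratios scaling each added 1 mitochondrial proteostasis gene. The other ER folding list had 0 calls with FPKM plus 1, the length trend, both other thresholds and each assumed coefficient. The other heat shock list had 1 gene higher with FPKM plus 1, both other thresholds and a coefficient of 0.1 or 0.2, and 0 lower with these, with 0.4, and with TMM or median-of-ratios scaling. For 50 named genes, the call stayed as it was in 577 pairs of a gene and an alternative, was lost in 18 and was gained in 3. With the length trend, 34 of the 43 genes were above 0 in place of 36, since Atf6 (-0.44 to 0.03) turned above 0 and Creld2, Herpud1 and Hsf1 below, none of them called. Before the subtraction, 7070 of all 15593 genes tested were above 0. Apart from thresholds and assumed variation, which change calls by construction, the cause was not tested. Depth limits Derl3, Chac1, Hspa1a and Hspa1b.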

Other observations

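The rise of Pdia4 was set beside the values of its nearest listed neighbours on chromosome 6, which were picked after the value of Pdia4 was seen. Cul1 and Ezh2 on its lower side had 1131 and 1061 counts and 108 and 70 counts in NT and IL-4, log2 ratios of -0.12 and -0.65, and neither was called. Zfp786, which begins at 47815536 beyond the other end of Pdia4, had 2 counts in NT and 11 in IL-4 and was called higher, with a log2 ratio of 2.17 whose interval ran from 0.24 to 5.65. Zfp398 beyond it had 43 and 32 counts.

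The length that RSEM weighted over the listed transcripts differed between libraries for some members. It was 2264.00 bases in NT and 2263.14 in IL-4 for Xbp1, which has 2 listed transcripts, 1604 and 1582 bases for Atf4, and 868 and 874 bases for Ddit3. The tables do not give the split between transcripts, so no isoform was compared.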
